A study of Mus musculus with 8 samples.

Results

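Semaphorins, plexins and neuropilins form a ligand and receptor system first known from axon guidance, and 32 rows of a mouse cortical astrocyte count table belong to it. They were taken by symbol (Sema3 to Sema7, Plxna to Plxnd, Nrp1 and Nrp2) from 24047 rows, and comprise 20 semaphorins, 9 plexins, 2 neuropilins and Plxna4os1, a non-coding transcript antisense to Plxna4 that the symbol rule also takes. RNA came from tdTomato-positive cells sorted from the somatosensory cortex at postnatal days 23 to 25, after tamoxifen on postnatal days 12 to 14. The 4 Ptch1cKO samples came from Glast-CreERT2; Ptch1fl/fl; Ai14 mice, in which the Glast promoter drives an inducible Cre meant to recombine the floxed Ptch1 gene, which encodes the Hedgehog receptor, and to turn on the tdTomato reporter Ai14. The 4 WT samples came from Glast-CreERT2; Ai14 mice, which carry the same Cre and reporter and received the same tamoxifen but have no floxed Ptch1. The design sets cortical astrocytes set to lose this brake on Hedgehog signalling after birth against astrocytes that keep it. Whether each library is 1 animal is not in the labels, so a p-value here reflects the spread between libraries, which may be technical.

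Semaphorins share an extracellular Sema domain. Those of class 3 are secreted, those of classes 4 to 6 span the membrane, and Sema7a is held by a lipid anchor. Plexins are their signalling receptors and carry an intracellular domain that inactivates small GTPases, through which they reshape the actin skeleton. Neuropilins bind most secreted semaphorins and lend them to plexins of type A, and they also bind vascular endothelial growth factors. In the brain these genes are used by neurons, glia and vessels, so a level in a sorted sample does not by itself name the cell.

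Libraries held 4061274 to 7043378 counts in Ptch1cKO and 4958119 to 7206462 counts in WT, and of these, 2578 to 5512 counts in Ptch1cKO and 3355 to 5981 counts in WT fell on these families. Ptch1 itself had 219, 249, 168 and 258 CPM (counts scaled to library size with TMM factors) in Ptch1cKO replicates 1 to 4, against 285, 227, 491 and 425 CPM in WT replicates 1 to 4. Its log2 fold change was -0.67 (SE 0.22), and the ranges overlapped. It did not pass the quasi-likelihood F test of edgeR after Benjamini-Hochberg (BH) adjustment over all genes (adjusted p = 0.349). It passed only in the fit without the filter on low counts, which called 199 genes against 11 with the filter. There its log2 fold change was -0.66, with a BH-adjusted p by edgeR of 0.00235. Counts were deposited per gene, and the labels do not name the floxed exons, so this value does not check the deletion itself. The 8 astrocyte markers summed to 11024 to 26936 CPM in Ptch1cKO and 16039 to 24038 CPM in WT. Markers of other cells were also present. The 6 oligodendrocyte markers summed to 17446 to 23064 CPM in Ptch1cKO and 13743 to 26610 CPM in WT, and 8 neuronal markers to 3772 to 4867 CPM in Ptch1cKO and 3780 to 5211 CPM in WT. The 7 endothelial markers summed to at most 14.9 CPM in a Ptch1cKO library and 17.9 CPM in a WT library, and the endothelial tight junction gene Cldn5 was near 0, at 0.107 CPM in Ptch1cKO and 0.172 CPM in WT. WT replicates 2 and 3 held 1148 and 612 counts of Xist, the transcript of the inactive X chromosome, and the other 6 libraries, called Xist-low here (under 10 counts), at most 4. In bulk samples, fewer cells of a type and less RNA per cell cannot be told apart.

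No semaphorin, plexin or neuropilin passed the comparison of Ptch1cKO with WT. Of the 26 members with enough counts to be tested, 0 were called by edgeR at a BH-adjusted p under 0.05, the smallest being 0.386, against 0.1% of all 10954 genes tested. DESeq2 called 0 of the 23 for which it gave an adjusted p, and gave none for Sema3c, Sema3e and Sema5b. An unadjusted p under 0.05 was found for 3 members (Plxnd1, Sema6c and Sema4d), 11.5% of the 26 beside 9.34% of all genes, and this share was near that of all genes. Of the 3, 1 was higher in Ptch1cKO (beside 4.8% of all genes) and 2 were lower (beside 4.54%). In CPM the libraries of both groups overlapped in every tested member, whereas 5.02% of all genes had groups that did not overlap. Fold changes were positive in 11 members and negative in 15, with a median log2 fold change of -0.05 beside -0.0019 for all genes. In 16 of the 26 members the 95% interval of the fold change lay within 2-fold in both directions, and in the other 10 it did not, so a 2-fold difference was not bounded there. None of these counts shows that the groups are alike.

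**Figure D1:**
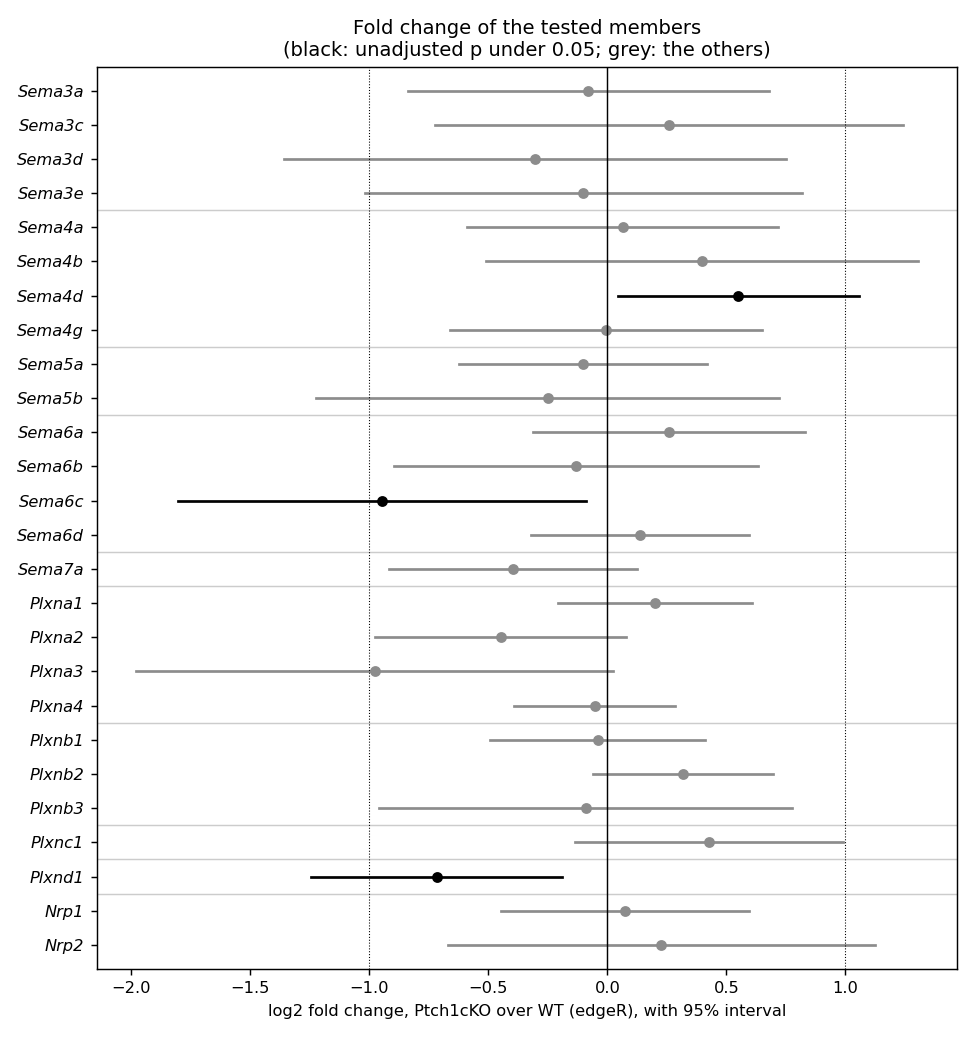
Log2 fold change of each of the 26 tested members, Ptch1cKO over WT, on the horizontal axis, with its 95% interval as a line and genes grouped by class down the page. The 3 black members have an unadjusted p under 0.05, none passed after adjustment over all genes, and dotted lines mark 2-fold.

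Levels of different genes were compared in TPM, the authors' values scaled for transcript length, which in these exome-captured libraries also depend on probe capture. The membrane semaphorin Sema6d was the most abundant member, with 63.8, 67.5, 31.8 and 72.4 TPM in Ptch1cKO against 53.9, 48.3, 77.0 and 50.9 TPM in WT. It made up 20.7% of the summed mean TPM of all 32 members and lay above 90.3% of the genes in the TPM table. Its highest and lowest libraries were WT replicate 3 and Ptch1cKO replicate 3, and the ranges of both groups overlapped. Plxnb1, the receptor of Sema4d, came next with 44.4, 44.8, 28.8 and 49.1 TPM in Ptch1cKO against 48.6, 35.3, 66.5 and 34.3 TPM in WT. It too was highest in WT replicate 3 and lowest in Ptch1cKO replicate 3, the library with the lowest astrocyte marker sum (11024 CPM). Slc1a2 alone made up 9327 CPM of that sum. Slc1a2 and Slc1a3 were lowest of all libraries there, and the other astrocyte markers were not. Gfap, at 341 CPM there, was above its Ptch1cKO mean of 217 CPM. The highest astrocyte marker sum was in Ptch1cKO replicate 2, at 26936 CPM, beside 24038 CPM in WT replicate 3. The part of astrocyte marker levels in the Sema6d and Plxnb1 values was not tested. The next in order were Sema7a at a mean of 21.5 TPM over the 8 libraries, Plxnb2 at 20.2 TPM, Sema5a at 13.7 TPM, Plxna4 at 12.9 TPM and Sema6a at 11.3 TPM. The range of each of these 7 genes over the 8 libraries overlapped those of its neighbours in this order. Within each of the 8 libraries, Sema6d was above Plxnb1. The neuropilins stood lower, with Nrp1 at 7.25 TPM and Nrp2 at 3.59 TPM.

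**Figure D2:**
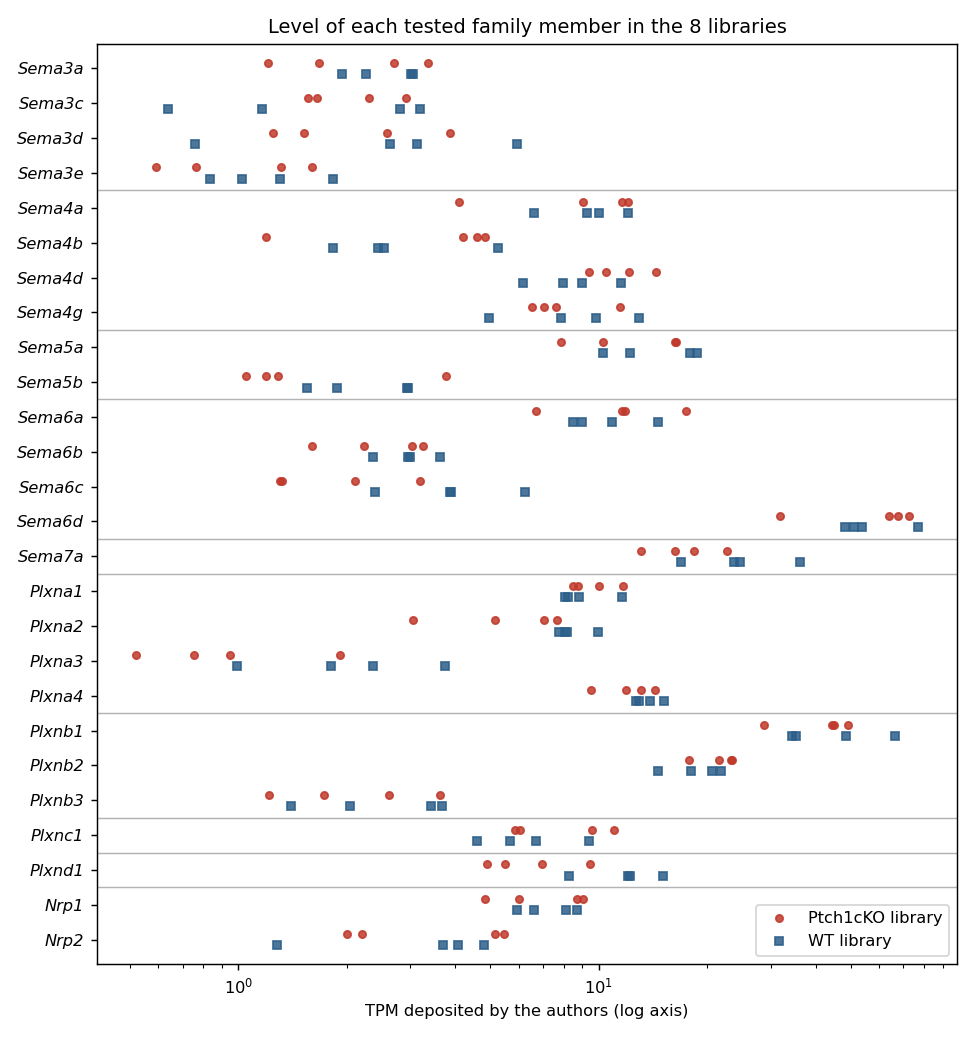
TPM of the 26 tested members on a log axis, 1 row per gene, with 4 Ptch1cKO libraries as circles in the upper line of a row and 4 WT libraries as squares in the lower. Sema6d and Plxnb1 have the highest means, at 58.2 and 44.0 TPM, and the class 3 semaphorins lie between 0.592 and 5.91 TPM.

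Of the ligand classes, the secreted class 3 semaphorins had the lowest summed TPM. Their 7 genes together summed to 8.32 ± 1.36 TPM in Ptch1cKO and 10.3 ± 2.66 TPM in WT (SD, n = 4 each). Sema3a, Sema3c, Sema3d and Sema3e were tested, with log2 fold changes from -0.30 to 0.26 and adjusted p from 0.902 to 0.972 (edgeR with BH adjustment). Sema3a, the repellent for which the family's neuropilin receptors were found, had 3.41, 4.69, 10.3 and 7.60 CPM in Ptch1cKO against 8.24, 5.97, 5.17 and 7.82 CPM in WT. The libraries of both groups interleaved. Sema3d had 6.53, 3.13, 4.18 and 9.75 CPM in Ptch1cKO against 1.85, 13.99, 6.29 and 7.21 CPM in WT, with both the lowest and the highest value in WT. The other 3 class 3 genes lay below the count filter. Sema3f, which signals through Nrp2, had 3, 5, 2 and 5 counts in Ptch1cKO against 16, 4, 14 and 6 counts in WT. WT replicates 1 and 3 held most of its counts, and in CPM only WT replicate 2 lay within the Ptch1cKO range. In the fit without the filter its log2 fold change was -1.28 (SE 0.74; BH-adjusted p by edgeR = 0.587). Sema3g had 2 counts in each group. Sema3b had 2 counts in Ptch1cKO and 0 in WT, where a count of 0 allows up to 0.123 CPM over the group, counting error only.

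Class 4 semaphorins are membrane proteins that act mainly on B-type plexins and on immune receptors. Sema4d, known from lymphocytes and oligodendrocytes, had 21.3, 16.3, 19.9 and 25.1 CPM in Ptch1cKO against 13.5, 14.8, 10.2 and 18.3 CPM in WT. All Ptch1cKO libraries but replicate 2 were above all WT libraries. The log2 fold change was 0.55 (SE 0.24, 95% interval 0.04 to 1.06), and it did not pass (BH-adjusted p by edgeR = 0.490). In the 6 Xist-low libraries the log2 fold change was 0.38 (SE 0.28). Markers of microglia, oligodendrocytes and oligodendrocyte precursors were listed beside it. The 8 microglial markers all had higher means in Ptch1cKO, with sums of 237 to 540 CPM in Ptch1cKO and 198 to 420 CPM in WT. For the oligodendrocyte markers 5 of 6 had higher means in Ptch1cKO, and their sums averaged 20121 CPM in Ptch1cKO and 19763 CPM in WT. Of 6 precursor markers all had higher means, with sums of 116 to 178 CPM in Ptch1cKO and 83.8 to 153 CPM in WT. Their part in the Sema4d values was not tested.

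Of the other class 4 genes, Sema4a had 12.2 ± 4.57 CPM in Ptch1cKO and 11.8 ± 2.91 CPM in WT, and Sema4g 13.9 ± 4.56 CPM in Ptch1cKO and 13.9 ± 5.42 CPM in WT (SD, n = 4 each). Sema4b had 6.39, 7.30, 1.97 and 6.94 CPM in Ptch1cKO against 2.69, 3.46, 7.55 and 3.50 CPM in WT. In each group the third replicate stood apart, low in Ptch1cKO and high in WT. Sema4c and Sema4f lay below the filter, with 26 and 31 counts over the 4 Ptch1cKO libraries and 34 and 39 counts over the 4 WT libraries.

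Class 5 and class 6 semaphorins span the membrane and can act as ligands and, for class 6, as receptors. Sema5a, which acts on Plxna1 and Plxna3 in the mouse retina, had 54.2 ± 17.3 CPM in Ptch1cKO and 58.2 ± 15.4 CPM in WT (SD, n = 4 each). Sema5b was low, at 3.25 ± 2.25 CPM in Ptch1cKO and 3.86 ± 1.22 CPM in WT. Sema6a, a ligand of Plxna2 and Plxna4, had 31.5, 17.7, 33.7 and 46.4 CPM in Ptch1cKO against 28.1, 36.6, 22.6 and 20.6 CPM in WT, with a log2 fold change of 0.26 (SE 0.27; BH-adjusted p by edgeR = 0.822). The groups overlapped widely. Sema6b had 3.97 ± 1.32 CPM in Ptch1cKO and 4.30 ± 0.775 CPM in WT. Sema6d, the leading member, had a log2 fold change of 0.14 (SE 0.21, 95% interval -0.32 to 0.60), and its adjusted p was 0.895 (edgeR with BH adjustment).

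Sema6c was the semaphorin with the smallest p. It had 2.13, 2.09, 3.69 and 5.12 CPM in Ptch1cKO against 6.06, 5.81, 9.50 and 3.50 CPM in WT. Of the WT libraries 3 lay above all Ptch1cKO libraries, and WT replicate 4 lay below 2 of them. The log2 fold change was -0.95 (SE 0.40, 95% interval -1.81 to -0.09), and it did not pass (BH-adjusted p by edgeR = 0.482). In the 6 Xist-low libraries it was -0.57 (SE 0.50). Sema7a, which acts through Plxnc1 and through integrins, had 28.4, 16.3, 25.1 and 20.3 CPM in Ptch1cKO against 29.9, 19.8, 28.1 and 41.2 CPM in WT. Its log2 fold change was -0.40 (SE 0.25) over all libraries and -0.66 (SE 0.27) in the 6 Xist-low libraries, with adjusted p of 0.655 and 0.573 (edgeR with BH adjustment).

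**Figure D3:**
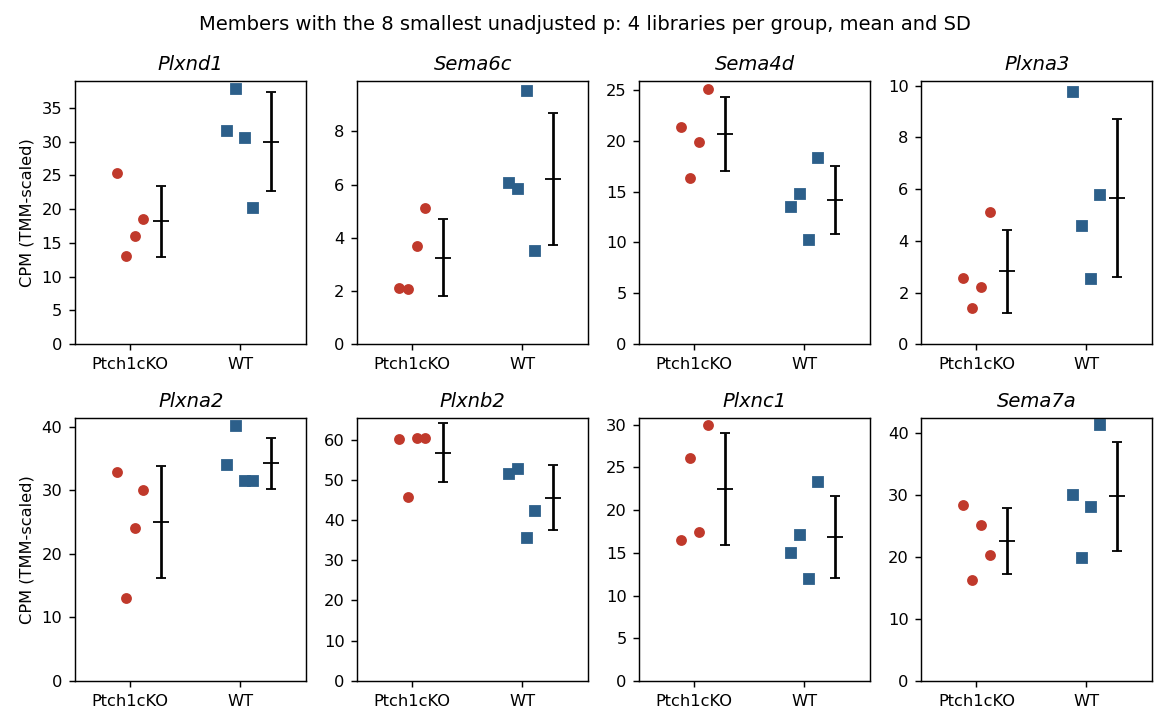
CPM in each library for the 8 members with the smallest unadjusted p, Ptch1cKO as circles and WT as squares, with the mean and SD of 4 libraries beside each group and every vertical axis starting at 0. In each of the 8 panels at least 1 library of one group lies within the range of the other.

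Among the receptors, Plxnd1 had the smallest p of all members. It binds Sema3e without a neuropilin and is best known from endothelial cells. Its levels were 25.3, 13.03, 15.99 and 18.5 CPM in Ptch1cKO against 31.6, 37.7, 30.5 and 20.2 CPM in WT. The groups overlapped only in that Ptch1cKO replicate 1 lay above WT replicate 4. The log2 fold change was -0.72 (SE 0.25, 95% interval -1.24 to -0.19), which did not pass (unadjusted p = 0.0110, BH-adjusted p by edgeR = 0.386). In the 6 Xist-low libraries, with only 2 of WT, it was -0.51 (SE 0.30). Its ligand Sema3e had 2.88 ± 1.22 CPM in Ptch1cKO and 3.12 ± 1.09 CPM in WT (SD, n = 4 each). Of 5 pericyte markers all had lower means in Ptch1cKO, with sums of 11.3 to 19.5 CPM in Ptch1cKO and 17.3 to 30.3 CPM in WT. Rgs5 averaged 3.48 CPM in Ptch1cKO and 9.75 CPM in WT. Pdgfrb, at 11.6 CPM in Ptch1cKO and 11.7 CPM in WT, was nearly equal, as was Abcc9 at 1.70 and 1.76 CPM. Kcnj8 and Anpep were near 0 in both groups, at most 0.581 CPM on average. Of 7 endothelial markers 3 had higher means in Ptch1cKO, with sums of 4.67 to 14.9 CPM in Ptch1cKO and 5.05 to 17.9 CPM in WT. The part of vessel cells in the Plxnd1 values was not tested.

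The A-type plexins, the partners of neuropilins, had negative fold changes in 3 of 4 genes and none passed. Plxna2 had 32.9, 13.03, 24.1 and 30.1 CPM in Ptch1cKO against 34.0, 40.1, 31.4 and 31.5 CPM in WT. Only Ptch1cKO replicate 1 reached into the WT range. The log2 fold change was -0.45 (SE 0.25; BH-adjusted p by edgeR = 0.616), and -0.23 (SE 0.20) without Ptch1cKO replicate 2. In TPM its groups did not overlap, with 7.67, 3.05, 5.15 and 7.03 TPM in Ptch1cKO against 8.18, 9.96, 7.74 and 8.07 TPM in WT. It was the 1 of 26 tested members of which this held, in either direction. Of all genes, 5.26% did not overlap in TPM and were lower in Ptch1cKO, so 1 of 26 is no more than that share. Over all genes 576 were lower without overlap in TPM and 274 in CPM. X-linked Plxna3 was low, at 2.56, 1.39, 2.21 and 5.12 CPM in Ptch1cKO against 9.76, 4.56, 2.52 and 5.76 CPM in WT. Its log2 fold change was -0.98 (SE 0.47, 95% interval -1.98 to 0.02), and -1.45 (SE 0.49) in the 6 Xist-low libraries, with adjusted p of 0.551 and 0.500 (edgeR with BH adjustment). Plxna1 had 35.2, 29.5, 33.5 and 40.8 CPM in Ptch1cKO against 27.4, 28.9, 38.4 and 26.1 CPM in WT. WT replicate 3 lay above all Ptch1cKO libraries but replicate 4. The log2 fold change was 0.20 (SE 0.19; BH-adjusted p by edgeR = 0.804). Plxna4, the most abundant of the 4, had 60.7 ± 8.23 CPM in Ptch1cKO and 63.0 ± 6.77 CPM in WT (SD, n = 4 each), and its antisense transcript Plxna4os1 had 9 counts over Ptch1cKO and 11 over WT, below the count filter.

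The B-type plexins are the main receptors of class 4 semaphorins. Plxnb1 had 141 ± 25.4 CPM in Ptch1cKO and 145 ± 49.1 CPM in WT, with a log2 fold change of -0.04 (SE 0.21, 95% interval -0.49 to 0.41; BH-adjusted p by edgeR = 0.9751). Plxnb2 had 60.2, 45.7, 60.5 and 60.3 CPM in Ptch1cKO against 51.5, 52.8, 35.6 and 42.2 CPM in WT. Ptch1cKO replicates 1, 3 and 4 lay together at 60.2 to 60.5 CPM, above every WT library, whereas replicate 2 lay among the WT libraries. The log2 fold change was 0.32 (SE 0.18; BH-adjusted p by edgeR = 0.622). X-linked Plxnb3, known from oligodendrocytes, had 5.48 ± 2.53 CPM in Ptch1cKO and 5.79 ± 2.47 CPM in WT (SD, n = 4 each). Plxnc1, the receptor of Sema7a, had 16.5, 26.1, 17.5 and 29.9 CPM in Ptch1cKO against 15.0, 17.1, 11.9 and 23.3 CPM in WT. Its log2 fold change was 0.43 (SE 0.26; BH-adjusted p by edgeR = 0.653), opposite in sign to that of its ligand, and neither passed.

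Nrp1 and Nrp2, the co-receptors, had log2 fold changes of 0.07 (SE 0.25) and 0.23 (SE 0.42), with adjusted p of 0.966 and 0.917 (edgeR with BH adjustment). Nrp1 had 20.7, 19.8, 12.1 and 13.7 CPM in Ptch1cKO against 13.1, 18.7, 17.6 and 13.8 CPM in WT. Nrp2 varied more, at 17.2, 6.26, 17.7 and 6.94 CPM in Ptch1cKO against 12.4, 3.77, 11.0 and 13.8 CPM in WT. The Ptch1cKO libraries of Nrp2 formed a higher and a lower pair, and 3 of the WT libraries lay between them.

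**Figure D4:**
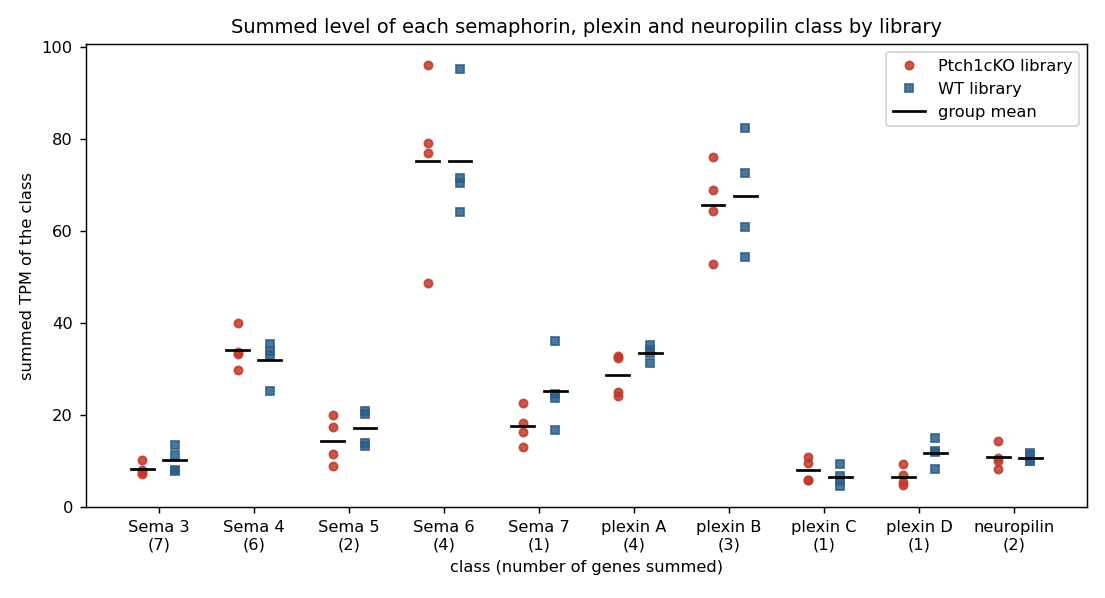
Summed TPM of each class by library, with the number of genes summed under its name, Ptch1cKO libraries as circles left of WT libraries as squares, and the group mean as a bar. Class 6 semaphorins averaged 75.3 TPM in Ptch1cKO and 75.3 TPM in WT, B-type plexins 65.6 TPM in Ptch1cKO and 67.6 TPM in WT, and in TPM the groups overlap in every class.

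Summed by family, semaphorins reached 150 ± 27.2 TPM in Ptch1cKO and 160 ± 12.5 TPM in WT, plexins 109 ± 16.6 TPM in Ptch1cKO and 120 ± 12.9 TPM in WT, and neuropilins 10.9 ± 2.65 TPM in Ptch1cKO and 10.8 ± 0.960 TPM in WT (SD, n = 4 each). In CPM the sums of 1 class, the class 4 semaphorins, did not overlap, with 51.95 to 62.8 CPM in Ptch1cKO and 37.7 to 51.67 CPM in WT, and this was not tested. In TPM the same sums were 29.8 to 39.95 TPM in Ptch1cKO and 25.3 to 35.6 TPM in WT, and overlapped. In every class the ratio of the Ptch1cKO mean to the WT mean was lower in TPM than in CPM. Class 6 semaphorins averaged 206 CPM in Ptch1cKO and 189 CPM in WT, and B-type plexins 204 CPM in Ptch1cKO and 197 CPM in WT. Over the 23585 genes with TPM the median log2 fold change was -0.048 by limma on log2(TPM + 1). By edgeR on counts it was -0.0019 over the 10954 genes tested and -0.055 over 20578 genes without the filter on low counts. As these medians cover different genes, they do not compare TPM with counts. These sums are descriptions without a test. Ptch1cKO replicate 3 was lowest of all 8 libraries in the sum over the families, at 215 TPM, and WT replicate 3 the highest, at 318 TPM, just above Ptch1cKO replicate 4.

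Genes that work with these receptors were taken from a list of 50 co-receptors, GTPases, effectors and actin regulators. Of the 43 tested, 0 passed by edgeR, beside 0.1% of all genes. DESeq2 called 0 of the 36 for which it gave an adjusted p. An unadjusted p under 0.05 by edgeR was found for 4, 9.3% of the 43 beside 9.34% of all genes, with 3 higher (beside 4.8% of all genes) and 1 lower (beside 4.54%). Fold changes were positive in 28 and negative in 15, or 34.9% negative beside 50.4% of all genes, with a median log2 fold change of 0.06 beside -0.0019. Sh3bp1, a GTPase-activating protein for Rac that acts downstream of Plxnd1, had 4.97, 3.48, 6.64 and 4.63 CPM in Ptch1cKO against 2.69, 1.26, 1.12 and 1.65 CPM in WT. All Ptch1cKO libraries lay above all WT libraries. On the log2 scale the fold change was 1.54 (SE 0.42), and it did not pass (BH-adjusted p by edgeR = 0.272). DESeq2 gave it an unadjusted p of 0.000965 and no adjusted p. Mical1, an actin-oxidising enzyme coupled to A-type plexins and named after its values were seen, was the other of the 2 partners whose groups did not overlap, beside 2.52% of all genes with Ptch1cKO higher. It had 7.54 ± 1.39 CPM in Ptch1cKO and 4.78 ± 1.20 CPM in WT (SD, n = 4 each).

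Vegfa, the growth factor that shares Nrp1 with class 3 semaphorins, had 158, 251, 145 and 147 CPM in Ptch1cKO against 134, 94.1, 160 and 61.3 CPM in WT. WT replicate 3 lay above 3 of the Ptch1cKO libraries. Its log2 fold change was 0.64 (SE 0.26, BH-adjusted p by edgeR = 0.470). In the fit without the filter on low counts, which called 199 genes against 11 with the filter, its BH-adjusted p by edgeR was 0.0145. The actin-severing protein Cfl1 had 861, 681, 936 and 863 CPM in Ptch1cKO against 741, 660, 726 and 597 CPM in WT. All Ptch1cKO libraries but replicate 2 lay above the WT ones. For Cfl1 the log2 fold change came to 0.29 (SE 0.13; BH-adjusted p by edgeR = 0.490). Dpysl5, of the collapsin response mediator family that relays Sema3a signals, had 3.69, 3.13, 2.46 and 3.64 CPM in Ptch1cKO against 16.7, 7.07, 2.10 and 3.50 CPM in WT. WT replicates 1 and 2 alone stood above Ptch1cKO. For Dpysl5 the log2 fold change came to -1.16 (SE 0.52; BH-adjusted p by edgeR = 0.515), and -0.37 (SE 0.45) without WT replicate 1.

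The genes lie on many chromosomes. Sema3a, Sema3c, Sema3d and Sema3e share mouse chromosome 5 of mm10 and Plxna3 and Plxnb3 the X chromosome. Plxnd1 lies on chromosome 6 at 115954811 to 115995005, Sema6c on chromosome 3 at 95160457 to 95174024 and Sema4d on chromosome 13 at 51685529 to 51793747. Exons of Plxna1, Plxna4, Plxnb1 and Sema4c overlap an annotated gene on the opposite strand, and without a stated strand setting the reads of such partners cannot be told apart. Because Gli factors carry the Hedgehog signal to DNA, the 250 bases before the annotated start were searched for the Gli core GACCACCCA on both strands. RefSeq promoters on GRCm38.p6 matched 26 members by symbol, with 37 promoters. None held the exact core, beside 0.225% of 32851 promoters of all genes, and 3 held it with 1 mismatch, 8.11% beside 5.79%. These 3 are shown because they are the member promoters with such a match. Each is read 5′ to 3′ on the gene's strand, with capitals at the match, which lies on the opposite strand in all of them.
Sema6c, chr3:95160170-95160419, plus strand: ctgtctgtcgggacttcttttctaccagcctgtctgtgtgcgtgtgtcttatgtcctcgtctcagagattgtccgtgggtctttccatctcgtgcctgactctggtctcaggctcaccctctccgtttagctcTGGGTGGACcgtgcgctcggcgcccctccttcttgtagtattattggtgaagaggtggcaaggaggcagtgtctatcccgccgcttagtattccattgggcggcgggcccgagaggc
Plxna2, chr1:194619579-194619828, plus strand: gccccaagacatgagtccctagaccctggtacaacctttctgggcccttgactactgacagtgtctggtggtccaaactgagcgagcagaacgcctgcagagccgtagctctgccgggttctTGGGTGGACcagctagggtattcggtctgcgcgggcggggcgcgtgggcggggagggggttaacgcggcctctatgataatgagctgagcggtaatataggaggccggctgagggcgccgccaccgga
Sema6b, chr17:56140344-56140593, minus strand: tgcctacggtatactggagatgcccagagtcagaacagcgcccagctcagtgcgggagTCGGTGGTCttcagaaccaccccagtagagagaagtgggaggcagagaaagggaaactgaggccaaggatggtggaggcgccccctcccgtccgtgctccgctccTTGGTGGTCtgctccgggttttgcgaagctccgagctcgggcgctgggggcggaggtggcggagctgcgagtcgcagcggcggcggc
The match begins 117 bases before the start in Sema6c and 128 bases before it in Plxna2, with the same 9 letters, and Sema6b holds 2 matches. A match of letters is a description and not a binding site, and none of the 3 genes passed the comparison.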

How the data were processed

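RNA of 8 sorted samples was low-input amplified and enriched by exome capture, per the labels' protocols. The submitters' processing notes name bcl2fastq 2.18, STAR 2.5 and the build mm10. The program that counted reads and its use of strand were not given in the sources used here. Raw counts per gene symbol (24047 rows) and TPM (23585 rows, scaled by the authors) were deposited. Counts were filtered with filterByExpr (minimum count 10), scaled by TMM and tested with the quasi-likelihood F test of edgeR 4.0.16 in R 4.3.3, group as the only term, with Benjamini-Hochberg adjustment over 10954 genes and a threshold of 0.05. The SE is the size of the log2 fold change over the root of F. The fit was tested on simulated data with 50 genes changed at each of several folds. It called 8% of the genes changed 1.5-fold, 38% at 2-fold, 80% at 3-fold and 88% at 4-fold. Of its 109 calls 2 were false. Most changes of 2-fold or less were thus missed there. Alternatives used DESeq2 1.42.0 and limma 3.58.1 on log2(TPM + 1). Positions are from GENCODE M21. By a chi-square test, all pairs of libraries within a group differed beyond sampling noise. Prefixes of the column names also vary within each genotype, and none is shared between genotypes. What they stand for is not given and cannot be told apart from genotype. In Ptch1cKO replicates 3 and 4, the number in the column name differs from the replicate number of the title. Members and lists were chosen with earlier results of these data known. The genes given in most detail are the 10 members with the smallest p, the 2 most abundant of each family and the 4 partners with the smallest p. An adjusted p that DESeq2 did not give was not counted.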

Additional observations from a re-analysis of the deposited data

Results flagged for a closer look

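Within 52 groups of 4 libraries (26 tested members in each genotype), 4 held a library far from the other 3, where chance gives about 1 in 20. Plxnb2 in Ptch1cKO replicate 2 was at 45.7 CPM, beside 60.2 to 60.5 CPM in the other Ptch1cKO libraries. Sema4b in Ptch1cKO replicate 3 was at 1.97 CPM, beside 6.39 to 7.30 CPM, and Sema4b in WT replicate 3 was at 7.55 CPM, beside 2.69 to 3.50 CPM in the other WT libraries. Sema5b in Ptch1cKO replicate 4 was at 6.61 CPM, beside 1.85 to 2.46 CPM in the other Ptch1cKO libraries.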

How the results depend on the processing

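In all 16 alternatives 0 members were called. The signalling partners had 0 calls in every alternative except without the filter on low counts, where 1 (Vegfa) was called. Ptch1 was also called there and in no other alternative. The number of genes called over the whole table, 11, was 79 by DESeq2, 199 without the filter on low counts, 0 by limma on log2(TPM + 1), 3 in the 6 libraries with under 10 Xist counts, and 1 to 19 when 1 library was left out (19 without Ptch1cKO replicate 2, and 1 without WT replicate 2, 3 or 4). With the replicate number as a block it was 5. Same-numbered libraries did not deviate together (correlations of -0.17 to 0.02), so the numbers were not used as pairs. Leaving out 1 library gave log2 fold changes of -0.61 to -0.23 for Plxna2 (nearest 0 without Ptch1cKO replicate 2), -1.44 to -0.57 for Plxna3 (nearest 0 without WT replicate 1) and -0.55 to -0.20 for Sema7a (nearest 0 without WT replicate 4). Among the 14 members given in full, 10 kept their sign in every alternative. These were the 10 members with the smallest p, picked from these same libraries, so their kept signs are no separate support. Leaving out 1 library gave log2 fold changes of -0.055 to 0.19 for Nrp1 (negative without WT replicate 1, Ptch1cKO replicate 1 or Ptch1cKO replicate 2), -0.051 to 0.45 for Nrp2 (negative without WT replicate 2, Ptch1cKO replicate 1 or Ptch1cKO replicate 3) and -0.17 to 0.19 for Plxnb1 (positive without WT replicate 3 or Ptch1cKO replicate 3). In the 6 libraries Nrp2 had -0.13 and Plxnb1 0.11. Plxnb1 had 0.0043 with the replicate block. In TPM, Nrp1 had -0.058 and Sema6d -0.0083. The causes were not tested. Of the other 12 tested members, 11 changed sign in at least 1 alternative, all with log2 fold changes between -0.30 and 0.26. The 6 members below the count filter, with at most 16 counts in a library, had SEs of 0.64 to 1.58 and BH-adjusted p of 0.587 to 0.998 by edgeR without the filter.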
